A study of Mus musculus with 24 samples.

Results

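Nucleotide excision repair was followed through 10 genes, Xpa, Xpc, Ercc1, Ercc2, Ercc3, Ercc4, Ercc5, Ercc6, Ercc8 and Rad23b. They were picked by name. A probe was taken when its gene name in the array annotation was 1 of these symbols or an older synonym, which gave 18 of 41174 probes and 10 of the 18434 protein-coding genes with a probe. The arrays held RNA from immortalized mouse embryonic fibroblasts of genotype Ku70-/-, which lack the gene Xrcc6 in every group, controls included, and are a single cell line. The first set had 15 arrays in 5 groups of 3, namely controls without treatment, KBrO3 alone (20 mM for 1 hr) with RNA taken at 4 or 24 hr, and co-exposure at both of these times. Co-exposed cells were in 150 µM bisphenol A (BPA) for 1 hr before KBrO3, during it, and afterwards until they were taken. The second set had 9 arrays in 3 groups of 3, a control group of that set and 150 µM BPA alone labeled 4 or 24 hr, for which the methods give 1 hr more. Replicates were separate biological samples, no control is labeled as taken at 24 hr, and the question was how BPA changes the response of repair genes to the oxidant KBrO3.

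Nucleotide excision repair removes bulky, helix-distorting lesions from DNA by cutting out the damaged stretch of a strand and filling the gap. In the global branch the XPC complex, of which RAD23B is a part, finds the distortion. In the transcription-coupled branch a stalled RNA polymerase II recruits CSB and CSA, the products of Ercc6 and Ercc8. Both branches then use the TFIIH helicases XPB (Ercc3) and XPD (Ercc2) and the verification factor XPA, and the nucleases XPG (Ercc5) and XPF-ERCC1 (Ercc4 and Ercc1) make the cuts. Oxidized bases of the kind that KBrO3 makes are mainly handled by base excision repair, although several of these proteins are known to act on oxidative damage as well.

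The brightest probe of each of the 10 genes was well above background on all 24 arrays, so that no gene was lost to the filter on dim probes. Values are log2 signals minus the array's 75th percentile, and a difference of 1 on this scale is a doubling. Differences were tested with limma, and a gene counted as higher or lower when its p-value, adjusted by Benjamini-Hochberg over every probe tested in the set, was below 0.05. Errors are the SD over 3 arrays for levels and the SE for differences. The share of spots well above background per array was 57.7% to 68.1% for the first set against 76.4% to 79.4% for the second. Replicates differed less in the first set, where the residual SD of the 10 genes had a median of 0.0912, than in the second, where it was 0.302. All 12 fibroblast markers examined were well above background in both control groups. Of the markers of other cell types, 1 of 4 endothelial, 1 of 5 leukocyte, 2 of 5 epithelial and 0 of 5 muscle markers were so on all 3 controls of the first set, and 3, 3, 4 and 3 of them on those of the second. After co-exposure at 4 hr 3 of the 5 muscle markers were. Pecam1 and Ptprc were below it in every group, whereas Tek, Cd68 and the epithelial marker Krt19 were above it on all arrays. The group means of Krt19 ran from −1.94 to 0.73. Cd68, a lysosomal protein abundant in macrophages, went from a mean of −3.08 in the first set's controls to −0.83 at 4 hr after KBrO3, −1.42 after co-exposure, and −1.92 and −1.21 at 24 hr. The median of the 12 fibroblast markers went from 7.06 in the first set's controls to 5.62 at 24 hr after KBrO3 and 5.20 after co-exposure. Lum, a matrix proteoglycan, went from 5.41 to 1.58 and 0.96, and Thy1, a fibroblast surface marker, was above background on 1 array after KBrO3 and on none after co-exposure at 24 hr. The part of these markers in the results was not tested.

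At 4 hr after KBrO3 alone, the 10 genes moved in opposite directions. Ercc2, Ercc3, Ercc6, Ercc8 and Rad23b rose, Ercc1, Ercc5, Xpa and Xpc fell, and Ercc4 did not pass. These 9 of 10 stood against a background of 72.7% of 14100 tested genes that changed in this comparison (34.5% higher, 38.2% lower), so that the share of members that changed says little about them. The median difference was 0.26 for the 10 genes and 0.02 for all genes, with a range from −1.03 for Xpa to 1.96 for Ercc8. After co-exposure, Ercc2, Ercc3, Ercc6 and Ercc8 rose and Ercc1, Ercc5, Xpa and Xpc fell, 8 of 10 beside a background of 80.4% (39.7% higher, 40.7% lower). By 24 hr after KBrO3 alone 6 genes were above control and Xpa alone was below it, beside a background of 69.4% (31.3% higher, 38.1% lower), and with the slide as a random block 3 of 10 passed. The controls share no slide with the arrays of KBrO3 at 24 hr or of either co-exposed group, so in these comparisons treatment and slide cannot be told apart. In the first set the consensus correlation of arrays on the same slide was 0.634, which the main p-values leave out of account. After co-exposure at 24 hr 8 genes were above control, Ercc6 was below it and Rad23b did not pass, beside a background of 72.5% (34.5% higher, 38% lower), and the median difference was 0.71 for the 10 genes against −0.06 for all genes. Under the thresholds of the study, a Bonferroni p below 0.01 and a fold change over 1.5, 4 of 10 passed at 4 hr after KBrO3 (background 31.2%), 3 after co-exposure (35.9%), and 2 (20%) and 3 (23.8%) at 24 hr. With median scaling the median of all genes at 24 hr was 0.08 after KBrO3 and 0.26 after co-exposure, and the share of higher genes among the called went from 45.1% to 57.2% and from 47.6% to 68%. In bulk RNA, a lower signal in every cell and fewer cells with the transcript cannot be told apart.

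**Figure D1:**
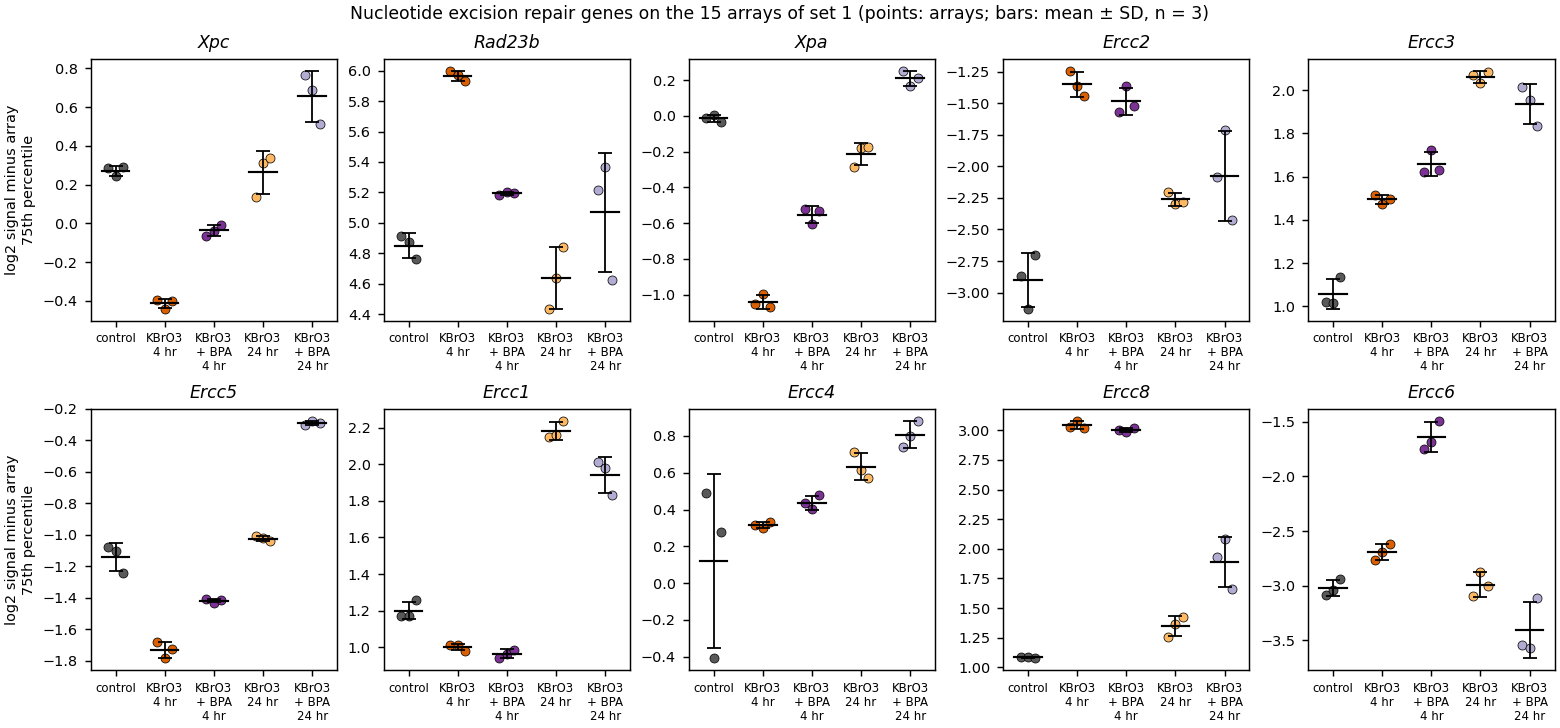
Normalized log2 signal (log2 signal minus the array's 75th percentile) of the brightest probe of each gene on the 15 arrays of the first set, by group; points are arrays and bars the mean ± SD (n = 3). Xpc, Xpa and Ercc5 lie lowest after KBrO3 at 4 hr and highest after co-exposure at 24 hr, whereas Ercc8 lies highest at 4 hr in both exposed groups.

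The damage sensor Xpc fell at 4 hr after KBrO3 and was back at the control level at 24 hr. Its log2 signal was 0.28, 0.24 and 0.29 in the controls and −0.40, −0.44 and −0.40 at 4 hr after KBrO3. Co-exposed arrays read −0.06, −0.04 and −0.01 at 4 hr, between these groups and without overlap with either. At 24 hr the arrays read 0.14, 0.31 and 0.34 after KBrO3 alone and 0.77, 0.69 and 0.51 after co-exposure. The latter were the highest of the 15. The fall at 4 hr was 1.61-fold (log2 difference −0.69, SE 0.066, limma adjusted p = 1.09e-06), and at 24 hr the difference from control was −0.01 (95% interval −0.15 to 0.14) for KBrO3 and 0.38 (adjusted p = 0.000231) for co-exposure. With normexp background correction the fall after co-exposure at 4 hr did not pass (−0.23, adjusted p = 0.0552). A second Xpc probe gave −0.62, −0.29, 0.04 and 0.35 for the same 4 comparisons, in the order KBrO3 and co-exposure at 4 hr, then at 24 hr.

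Xpa, which binds the opened helix and verifies the lesion, had a single probe, mm7 chr4:46198183-46198242 on the minus strand. The control arrays read −0.01, 0.00 and −0.03, and those taken at 4 hr after KBrO3 read −1.05, −0.995 and −1.07. Co-exposed arrays at 4 hr read −0.52, −0.61 and −0.53, again between the other groups with no overlap. KBrO3 arrays at 24 hr, at −0.28, −0.18 and −0.17, were still below every control, and co-exposed arrays, at 0.25, 0.17 and 0.21, were above every control. The fall at 4 hr was 2.04-fold after KBrO3 alone (log2 difference −1.03, SE 0.043, limma adjusted p = 4.44e-10) and 1.45-fold after co-exposure (adjusted p = 1.67e-07). The difference at 24 hr after KBrO3 (−0.20, adjusted p = 0.00145) was lost with median scaling (−0.05, adjusted p = 0.668) and with all 24 arrays in 1 fit (adjusted p = 0.336), and that 1 fit also took the call of the rise after co-exposure at 24 hr (0.22, adjusted p = 0.258).

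Ercc5, the nuclease that cuts on the 3′ side of the lesion, also fell at 4 hr and less so after co-exposure. Its log2 signal was −1.08, −1.10 and −1.25 in the controls, −1.68, −1.79 and −1.72 at 4 hr after KBrO3 and −1.41, −1.43 and −1.42 after co-exposure. At 24 hr it was −1.01, −1.02 and −1.04 after KBrO3 alone and −0.30, −0.28 and −0.29 after co-exposure. The co-exposed arrays at 24 hr stood above every other array of the set. Ercc5 fell 1.5-fold at 4 hr after KBrO3 (log2 difference −0.59, SE 0.045, limma adjusted p = 1.27e-07) and rose 1.81-fold above control at 24 hr after co-exposure (0.85, SE 0.045, adjusted p = 5.96e-09). The small rise at 24 hr after KBrO3 alone (0.12, adjusted p = 0.0368) did not pass without control replicate 3 (0.07, adjusted p = 0.155) or without KBrO3 replicate 1, 2 or 3 (0.11 to 0.13), with no filter on dim probes (adjusted p = 0.0743), the slide as a random block (0.0725), only the arrays compared (0.132) or all 24 arrays in 1 fit (0.433), and normexp background correction turned it to −0.16.

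The 60-base probes behind the values of Xpa and Ercc5 are given here with those of Ercc1 and of the dimmest Ercc8 probe, since each of these is the piece of transcript that was measured. They are in lower case with no part singled out. Those of Ercc5 (mm7 chr1:44418759-44419590), Ercc1 (mm7 chr7:17036778-17037512) and Ercc8 (mm7 chr13:105306978-105307891) lie on the plus strand and are annotated over 832, 735 and 914 bases of the genome, more than their own 60, so they join sequence that is apart in the genome.
Xpa: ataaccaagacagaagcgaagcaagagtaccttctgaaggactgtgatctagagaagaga
Ercc5: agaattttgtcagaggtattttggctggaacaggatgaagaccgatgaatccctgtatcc
Ercc1: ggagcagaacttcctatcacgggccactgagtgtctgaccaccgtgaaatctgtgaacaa
Ercc8: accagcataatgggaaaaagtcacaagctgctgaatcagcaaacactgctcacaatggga

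Ercc8, whose product CSA belongs to the ubiquitin ligase of transcription-coupled repair, showed the largest rise of the 10 genes. Its brightest probe read 1.09, 1.09 and 1.08 in the controls, 3.03, 3.08 and 3.02 at 4 hr after KBrO3 and 3.00, 2.99 and 3.02 after co-exposure. Both exposed groups at 4 hr lay far above the controls, and the co-exposed arrays lay just below those of KBrO3 alone, by less than the error of the difference. At 24 hr the values were 1.26, 1.36 and 1.42 after KBrO3 and 1.93, 2.08 and 1.66 after co-exposure. At 4 hr the rise was 3.89-fold after KBrO3 (log2 difference 1.96, SE 0.083, limma adjusted p = 4.6e-10) and 3.78-fold after co-exposure (1.92, adjusted p = 4.69e-10). At 24 hr it was 1.2-fold (0.26, adjusted p = 0.0138) and 1.75-fold (0.81, adjusted p = 2.61e-06). The first of these was lost without KBrO3 24 hr replicate 3 (adjusted p = 0.0534) and with the slide as a random block (0.119) or all 24 arrays in 1 fit (0.0939). The other probes, mm7 chr13:105292904-105292963 (probe 2) and the one printed above (probe 3), rose by 1.72 and 2.15 at 4 hr after KBrO3. At 24 hr after KBrO3 they gave 0.22 (adjusted p = 0.341) and 1.09 (adjusted p = 9.43e-07). After co-exposure at 24 hr probe 2 did not pass (0.25, adjusted p = 0.259) and probe 3 did (1.17, adjusted p = 4.2e-07).

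Ercc6, which encodes the CSB ATPase of the same branch, responded to the co-exposure more than to KBrO3. The controls read −3.08, −3.04 and −2.94, and KBrO3 arrays at 4 hr read −2.76, −2.69 and −2.62. Co-exposed arrays at 4 hr read −1.75, −1.69 and −1.49, the highest of the set. At 24 hr the arrays read −3.10, −2.87 and −3.00 after KBrO3, overlapping the controls, and −3.55, −3.57 and −3.11 after co-exposure, below all of them. The rise at 4 hr was 2.60-fold after co-exposure (log2 difference 1.38, SE 0.12, limma adjusted p = 2.49e-07) and 1.26-fold after KBrO3 alone (0.33, adjusted p = 0.0221). The latter call was lost without control replicate 1 or 2 or KBrO3 replicate 3 (adjusted p = 0.0685, 0.0545 and 0.0712), with the percentile over detected probes (0.173), with the slide as a fixed block (0.051) and with all 24 arrays in 1 fit (0.137). Ercc6 is dim, and with normexp background correction its differences at 4 hr were −0.49 (adjusted p = 0.196) after KBrO3 and 0.28 (adjusted p = 0.457) after co-exposure. With that correction Ercc6 at 24 hr after KBrO3 alone was lower than control (−0.88, limma adjusted p = 0.03). The fall at 24 hr after co-exposure (−0.39, adjusted p = 0.00975) was lost with median scaling (−0.07, adjusted p = 0.657), quantile normalization (−0.11, adjusted p = 0.42) and all 24 arrays in 1 fit (0.0859). Over all alternatives this fall ran from −1.09 to −0.07. The values of Ercc6 rest on 1 probe, which was tied to the gene by its symbol and not by a RefSeq transcript. No array of the first set gave a signal well above background at the other Ercc6 probe.

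Rad23b, the partner that stabilizes XPC, rose at 4 hr after KBrO3 at all of its 4 probes. The brightest read 4.92, 4.88 and 4.76 in the controls, 5.99, 5.97 and 5.93 after KBrO3 and 5.18, 5.20 and 5.20 after co-exposure at 4 hr. It read 4.44, 4.64 and 4.84 at 24 hr after KBrO3 and 5.21, 5.37 and 4.63 after co-exposure, 2 groups that overlapped each other. The difference from control after co-exposure at 24 hr (0.22) did not pass. It did without co-exposure replicate 3 (0.44, limma adjusted p = 0.00185), with median scaling (0.54, 0.0222) and with normexp background correction (0.53, 0.044). The rise at 4 hr after KBrO3 was 2.16-fold (log2 difference 1.11, SE 0.15, limma adjusted p = 3.09e-05). The other probes gave 1.12, 1.5 and 1.28, each with an adjusted p of 1.06e-07 or less. After co-exposure at 4 hr the probes disagreed. The brightest gave 0.34 (adjusted p = 0.0592), whereas the other 3 gave 1.11, 1.79 and 0.93 and each passed (adjusted p = 2.26e-07 or less). The brightest probe lies at mm7 chr4:55404489-55404544, 2 of the others lie further along the plus strand at chr4:55405131-55405190 and chr4:55405822-55405881, and the last lies upstream at chr4:55381925-55381984.

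**Figure D2:**
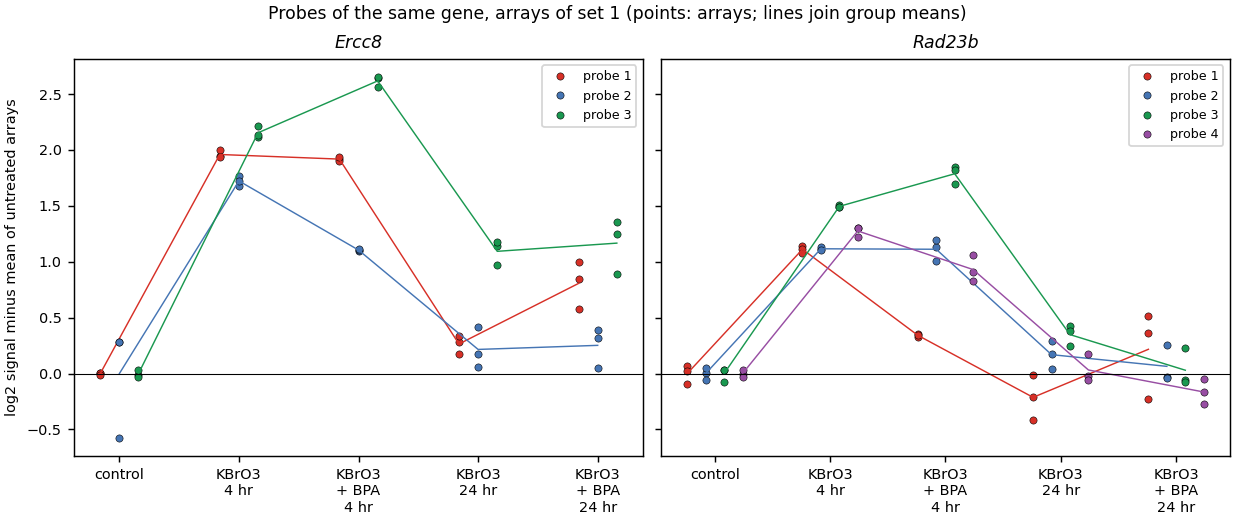
Log2 signal of each probe of Ercc8 (left) and Rad23b (right) on the arrays of the first set, minus that probe's mean over the 3 untreated arrays; points are arrays and lines join group means. All probes rise at 4 hr after KBrO3, and for Rad23b probe 1 stands lower than the other 3 after co-exposure at 4 hr (0.34 against 1.11, 1.79 and 0.93).

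Both TFIIH helicases were above control at 4 and at 24 hr, Ercc2 by more at 4 hr and Ercc3 by more at 24 hr. Ercc2 read −2.87, −3.13 and −2.71 in the controls, −1.25, −1.37 and −1.44 at 4 hr after KBrO3, and −1.57, −1.36 and −1.52 after co-exposure. At 24 hr it read −2.20, −2.30 and −2.28 after KBrO3 and −2.09, −1.72 and −2.43 after co-exposure, still above every control. The rise at 4 hr was 2.93-fold after KBrO3 (log2 difference 1.55, SE 0.15, limma adjusted p = 1.35e-06) and 2.67-fold after co-exposure (1.42, adjusted p = 2.83e-06), and at 24 hr it was 1.56-fold (0.64, adjusted p = 0.00279) and 1.77-fold (0.82, adjusted p = 0.000411). The Ercc2 probe is dim as well, and normexp background correction gave 0.42 (adjusted p = 0.252) and 0.31 (adjusted p = 0.396) at 4 hr and turned the differences at 24 hr to −0.39 (adjusted p = 0.279) and −0.23 (adjusted p = 0.53). With the slide as a random block the rise at 24 hr after KBrO3 did not pass (limma adjusted p = 0.0749), nor did it with all 24 arrays in 1 fit (0.083).

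Ercc3 read 1.02, 1.01 and 1.14 in the controls and 1.52, 1.48 and 1.5 at 4 hr after KBrO3. It read 1.62, 1.72 and 1.63 at 4 hr after co-exposure. At 24 hr it read 2.07, 2.03 and 2.08 after KBrO3 and 2.01, 1.96 and 1.83 after co-exposure, so that all 12 exposed arrays were above all 3 controls. The rise was 1.36-fold at 4 hr after KBrO3 (log2 difference 0.44, limma adjusted p = 7.6e-06) and 2.01-fold at 24 hr (1.00, SE 0.052, adjusted p = 7.1e-09). After co-exposure it was 1.52-fold (0.60, adjusted p = 3.49e-07) and 1.84-fold (0.88, adjusted p = 1.68e-08).

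Ercc1 and Ercc4 encode the subunits of the nuclease that cuts on the 5′ side. Ercc1 read 1.17, 1.17 and 1.26 in the controls, 1.01, 1.01 and 0.98 at 4 hr after KBrO3 and 0.94, 0.97 and 0.99 after co-exposure. At 24 hr it read 2.15, 2.16 and 2.24 after KBrO3 and 2.01, 1.98 and 1.83 after co-exposure. Ercc1 was thus slightly below control at 4 hr (1.15-fold lower after KBrO3, log2 difference −0.20, limma adjusted p = 0.0033) and 1.98-fold above it at 24 hr (0.98, SE 0.050, adjusted p = 5.95e-09), or 1.67-fold after co-exposure (0.74, adjusted p = 5.42e-08). The fall at 4 hr after KBrO3 was lost with median scaling (adjusted p = 0.0649), normexp background correction (−0.03, adjusted p = 0.811) and all 24 arrays in 1 fit (0.323), and that after co-exposure (−0.24) with normexp (adjusted p = 0.575) and 1 fit (0.218).

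The controls of Ercc4 differed among themselves by more than the arrays of any exposed group did. They read 0.49, −0.41 and 0.28, and the exposed groups read 0.32, 0.30 and 0.33 after KBrO3 and 0.43, 0.40 and 0.48 after co-exposure at 4 hr. At 24 hr the arrays read 0.71, 0.61 and 0.57 after KBrO3 and 0.74, 0.80 and 0.88 after co-exposure, above all controls. The rise at 24 hr was 1.43-fold (log2 difference 0.51, SE 0.17, limma adjusted p = 0.0169) and 1.61-fold (0.69, adjusted p = 0.00289), and with the slide as a random block neither passed (adjusted p = 0.159 and 0.0616), nor did the first with only the arrays compared (0.113). Without control replicate 2 no call changed, and the differences were 0.25 (adjusted p = 0.0091) and 0.42 (adjusted p = 0.000258) at 24 hr, and −0.07 (adjusted p = 0.397) and 0.05 (adjusted p = 0.507) at 4 hr. Without control replicate 1 both differences at 4 hr passed (0.38, adjusted p = 0.0388, and 0.50, adjusted p = 0.00934).

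**Figure D3:**
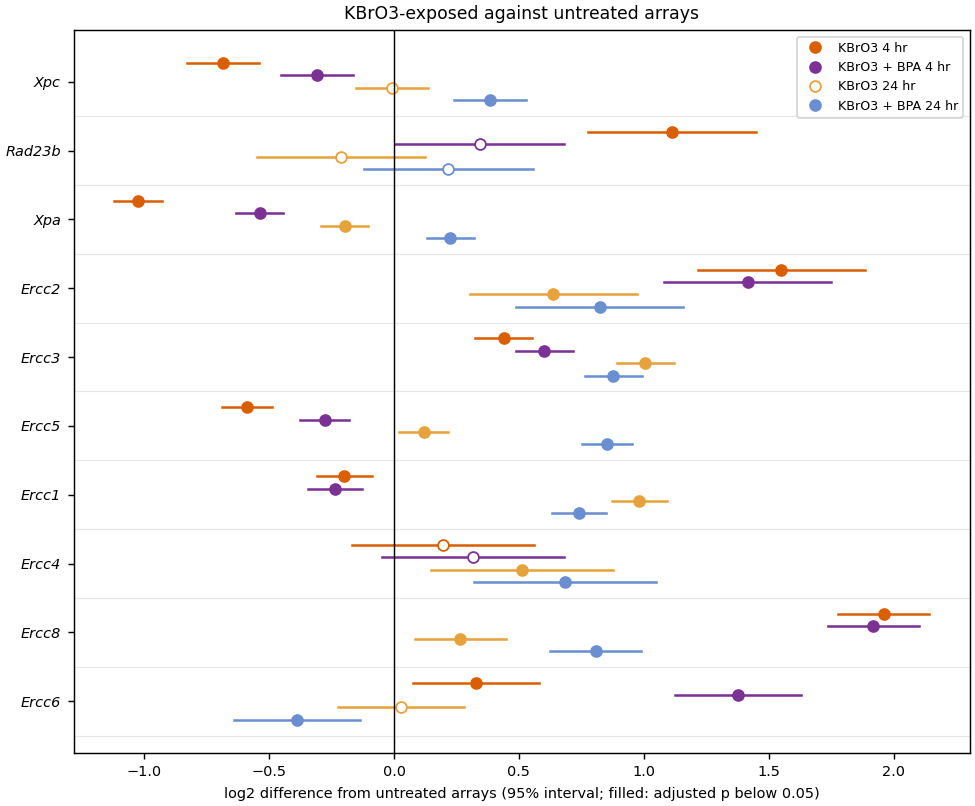
Log2 difference of each gene from the untreated arrays of the first set, for KBrO3 alone and co-exposure at 4 and 24 hr; points are limma estimates, lines their 95% intervals, and filled points passed an adjusted p below 0.05. Xpc, Xpa and Ercc5 lie below 0 at 4 hr in both groups, and at 24 hr after co-exposure 8 of the 10 genes lie above 0 and passed.

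Between 4 and 24 hr after KBrO3 alone, Ercc1, Ercc3, Ercc5, Xpa and Xpc rose and Ercc2, Ercc6, Ercc8 and Rad23b fell, 9 of 10 beside a background of 77.7%. The largest rise was that of Ercc1 (log2 difference 1.18, SE 0.050, limma adjusted p = 5.86e-10) and the largest fall that of Ercc8 (−1.69, SE 0.083, adjusted p = 2.1e-09). The fall of Ercc6 (−0.30) was lost with quantile normalization (adjusted p = 0.134), median scaling (−0.15, 0.326), the percentile over detected probes (−0.11, 0.417), normexp background correction (0.36), the slide as a random block (0.408) and all 24 arrays in 1 fit (0.169), and without KBrO3 4 hr replicate 2 or 3 or 24 hr replicate 1 or 3 (0.0666, 0.0952, 0.104 and 0.0695). That of Ercc2 (−0.91) was lost with normexp (adjusted p = 0.0587). In co-exposed cells the same 5 rose and Ercc2, Ercc6 and Ercc8 fell, 8 of 10 beside a background of 84.5%. Ercc5 rose most there (1.13) and Ercc6 fell most (−1.76, SE 0.12, adjusted p = 2.6e-08). The fall of Ercc2 (−0.59) was lost with median scaling (−0.13, adjusted p = 0.457), normexp (0.189), the slide as a fixed block (−0.33, adjusted p = 0.193) and all 24 arrays in 1 fit (0.0795), and the rise of Ercc3 (0.28) with normexp (adjusted p = 0.0645) and 1 fit (0.137). Rad23b did not pass there at its brightest probe (−0.13, adjusted p = 0.464), but its other probes fell by 1.05, 1.76 and 1.09, each with an adjusted p of 1.9e-07 or less. No untreated arrays were labeled 24 hr, so time in culture cannot be told apart from time after exposure. No slide held arrays of both times of either treatment, and after KBrO3 alone time and slide cannot be told apart.

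The comparison of co-exposed cells with cells given KBrO3 alone asks what BPA adds. At 4 hr Ercc3, Ercc5, Ercc6, Xpa and Xpc were higher with BPA and Rad23b was lower at its brightest probe, 6 of 10 beside a background of 60.8% (28.1% higher, 32.7% lower). The falls of Xpa, Xpc and Ercc5 after KBrO3 were smaller with BPA, by 0.49 (SE 0.043, limma adjusted p = 2.86e-06), 0.38 (SE 0.066, adjusted p = 0.000482) and 0.31 (SE 0.045, adjusted p = 0.000125) on the log2 scale. Ercc6 was 2.07-fold higher (1.05, SE 0.12, adjusted p = 1.46e-05), a call lost with normexp background correction (0.77, adjusted p = 0.162). The call of Ercc3 (0.16, adjusted p = 0.0188) was lost without KBrO3 replicate 2 or co-exposure replicate 2 (adjusted p = 0.059 and 0.0765), with normexp (0.529), with the slide as a random block (0.101) and with all 24 arrays in 1 fit (0.501). None of the 10 passed the thresholds of the study here (background 5.99%). Scaling to the array median, which moved the median of all genes from −0.02 to −0.16 in this comparison and the share of higher genes among the called from 46.2% to 29.3%, left the calls of Xpa (0.35), Ercc6 (0.91) and Rad23b (−0.91) and took those of Xpc (0.23, adjusted p = 0.098), Ercc5 (0.17, adjusted p = 0.113) and Ercc3 (0.02, adjusted p = 0.85). Ercc5 was also lost with normexp (0.24, adjusted p = 0.327) and with all 24 arrays in 1 fit (0.0506). No slide held arrays of both groups, so treatment and slide cannot be told apart there.

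For Rad23b and Ercc8 the effect of BPA at 4 hr differed between probes. The brightest Rad23b probe gave −0.77 (limma adjusted p = 0.00121), the other probes 0.00, 0.29 (adjusted p = 0.00816) and −0.35 (adjusted p = 0.00246). For Ercc8 the probes gave −0.04 (adjusted p = 0.69), −0.62 (adjusted p = 0.016) and 0.46 (adjusted p = 0.00175). The probes of these genes thus had no single direction in this comparison. Only the brightest Rad23b probe was matched to a RefSeq transcript, and the Ercc8 probe that gave −0.62 was not. Whether the probes of a gene measure the same RNA was not tested.

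At 24 hr Ercc5, Ercc8, Rad23b, Xpa and Xpc were higher with BPA than with KBrO3 alone and Ercc1 and Ercc6 were lower, 7 of 10 beside a background of 50.4% (28.5% higher, 21.9% lower). Ercc5 was 1.66-fold higher (log2 difference 0.73, SE 0.045, limma adjusted p = 1.16e-07), and it was the only member to pass the thresholds of the study here (background 7.43%). Xpa was higher by 0.42 (SE 0.043, adjusted p = 7.72e-06) and Xpc by 0.39 (SE 0.066, adjusted p = 0.000419). With all 24 arrays in 1 fit the call of Xpa was lost (adjusted p = 0.0751). With median scaling the median of all genes went from 0.01 to 0.17 and the share of higher genes among the called from 56.5% to 78.3%. On the slide that held 2 arrays of each group, these 3 differences were 0.74, 0.38 and 0.40. Ercc8 was higher by 0.54 (adjusted p = 0.000204) at its brightest probe, against 0.04 and 0.07 at the others, neither of which passed. Rad23b was higher by 0.43 (adjusted p = 0.0383) at its brightest probe, whereas its other probes gave −0.10, −0.32 and −0.20. That call was lost without KBrO3 replicate 1 or 2 and without co-exposure replicate 1 or 2 (adjusted p = 0.138, 0.0788, 0.127 and 0.16), and with the replicate number as a block (0.0521), quantile normalization (0.0697), normexp background correction (0.372), no filter on dim probes (0.0627), the error-weighted analysis of variance (0.0533), only the arrays compared (0.19) and all 24 arrays in 1 fit (0.172). Ercc6 was lower by 0.42 (log2 difference −0.42, adjusted p = 0.0106) and Ercc1 by 0.24 (−0.24, adjusted p = 0.00181). Both calls were lost with median scaling (−0.25, adjusted p = 0.154, and −0.07, adjusted p = 0.546), with normexp background correction (adjusted p = 0.941 and 0.164), with only the arrays compared (0.0798 and 0.0508) and with all 24 arrays in 1 fit (0.13 and 0.363), and that of Ercc6 also with quantile normalization (0.0861).

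The effect of BPA on KBrO3-exposed cells changed between 4 and 24 hr for 6 of the 10 genes, beside a background of 57.4%. The 4 hr part of this test compares groups on different slides, so a change over time cannot be told apart from a slide difference. This change was positive for Rad23b (1.2, SE 0.22, limma adjusted p = 0.000754), Ercc8 (0.58, adjusted p = 0.00144) and Ercc5 (0.42, adjusted p = 0.000214), and negative for Ercc6 (−1.46, SE 0.16, adjusted p = 2.45e-05), Ercc3 (−0.29, adjusted p = 0.00603) and Ercc1 (−0.20, adjusted p = 0.0289). Xpa (−0.06, 95% interval −0.20 to 0.07) and Xpc (0.02, −0.19 to 0.22) did not pass, and both intervals span no change. With the percentile over detected probes Xpa did pass (−0.16, limma adjusted p = 0.0271). The values of Rad23b and Ercc8 again belong to their brightest probes, since Rad23b probe 3 gave −0.61 (adjusted p = 0.000832) and Ercc8 probe 3 gave −0.39 (adjusted p = 0.0323). Those of Ercc1 and Ercc3 turned to 0.11 and 0.022 with median scaling. Normexp background correction took the calls of Ercc6 (−0.98, adjusted p = 0.239), Ercc5 (0.41, adjusted p = 0.224), Ercc3 (adjusted p = 0.291) and Ercc1 (adjusted p = 0.495). The fit of all 24 arrays took those of Ercc5 (adjusted p = 0.068), Ercc3 (0.398) and Ercc1 (0.586). The call of Ercc1 was also lost with the replicate number as a block (0.0544), with the slide as a random block (0.0676) and without KBrO3 4 hr replicate 3, co-exposure 4 hr replicate 2 or 3 or KBrO3 24 hr replicate 3 (0.0615, 0.0514, 0.0617 and 0.0666).

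With BPA alone none of the 10 genes passed limma's adjusted threshold at 4 hr or at 24 hr, beside backgrounds of 4.68% and 4.31% of 15741 genes, and 2 were below an unadjusted p of 0.05 at each time. With all 24 arrays in 1 fit, which gives both sets the same spread, 3 passed at 4 hr and 5 at 24 hr, where that fit called 25.7% and 24.9% of all genes. Of the brightest probes, those of Rad23b and Ercc8 differed most. That of Rad23b read 3.37, 3.06 and 3.79 in the second set's controls, 3.81, 4.36 and 4.13 at 4 hr and 4.4, 4.77 and 4.12 at 24 hr, so that all 6 BPA arrays were above all 3 controls. The Ercc8 probe read 0.46, 0.22 and 0.11 in those controls, 0.79, 0.94 and 0.93 at 4 hr and 1.12, 1.22 and 0.76 at 24 hr, likewise without overlap. The differences for Rad23b were 0.69 (95% interval 0.10 to 1.29, limma adjusted p = 0.194) at 4 hr and 1.03 (0.43 to 1.62, adjusted p = 0.0732) at 24 hr, and those for Ercc8 were 0.63 (0.18 to 1.07, adjusted p = 0.12) and 0.77 (0.33 to 1.21, adjusted p = 0.0699). No other probe of these genes passed either. Those of Rad23b gave 0.09, 0.37 and 0.53 at 4 hr and −0.04, 0.30 and −0.06 at 24 hr, and all but the second at 4 hr overlapped the controls. Those of Ercc8 gave 0.67 and 0.33 at 4 hr and 0.47 and 0.23 at 24 hr and overlapped the controls at both times. Intervals in this set are wide. For Xpa they ran from −0.02 to 1.12 at 4 hr and from −0.09 to 1.05 at 24 hr, which include the differences of 0.49 and 0.42 that BPA made on top of KBrO3. For Ercc5 they ran from −0.61 to 0.29 and from −0.48 to 0.42 while its differences on top of KBrO3 were 0.31 (0.21 to 0.41) and 0.73 (0.64 to 0.83), and the test of added against alone did not pass at 4 hr (0.47, adjusted p = 0.182) or at 24 hr (0.76, adjusted p = 0.129). Between 24 and 4 hr of BPA alone none of the 10 passed either (background 4.3%), and 1 was below an unadjusted p of 0.05.

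Whether BPA acted differently with KBrO3 than alone was tested as the difference of the effects in the 2 sets. At 4 hr it was 1.38 for Ercc6 (SE 0.28, limma adjusted p = 0.00981), which read 1.05 higher with BPA in KBrO3-exposed cells and 0.33 lower (log2 difference −0.33, adjusted p = 0.525) with BPA alone. It was −1.46 for Rad23b (SE 0.31, adjusted p = 0.00899) at the brightest probe, and these 2 of 10 stood beside a background of 10.1%. The other Rad23b probes gave −0.09, −0.07 and −0.88, and none passed (adjusted p = 0.861, 0.868 and 0.394). Normexp background correction took both calls (Ercc6 0.91, adjusted p = 0.958, and Rad23b −1.44, adjusted p = 0.424). The call of Ercc6 was also lost without BPA 4 hr replicate 3 (1.29, adjusted p = 0.0551). At 24 hr no member passed with limma (background 1.63%), 1 was below an unadjusted p of 0.05, and the largest difference was that of Ercc5 (0.76, 95% interval 0.31 to 1.22, adjusted p = 0.129). The sets were extracted with different software versions and had controls of their own.

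**Figure D4:**
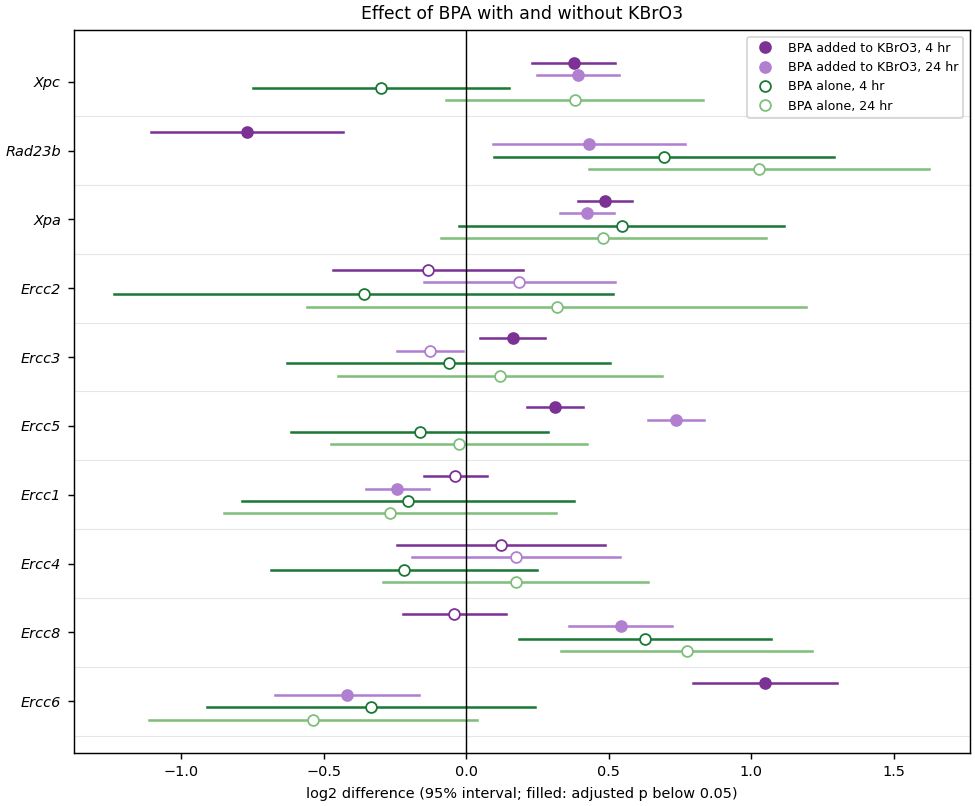
Log2 difference made by BPA in KBrO3-exposed cells (co-exposure against KBrO3 alone, first set) and in cells given nothing else (BPA against untreated, second set), at 4 and 24 hr; points are limma estimates, lines 95% intervals, and filled points passed an adjusted p below 0.05. All 20 points of BPA alone are open, and Ercc6 at 4 hr (1.05) and Ercc5 at 24 hr (0.73) are the highest filled points.

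Over the 15 arrays of the first set the genes fell into courses that went together. Pearson's r was 0.97 between Xpa and Xpc, 0.94 between Ercc5 and Xpc and 0.94 between Ercc2 and Ercc8, whereas it was −0.77 between Ercc8 and Xpa. These values describe 5 group means with little spread around them and carry no test. The genes most like Ercc8 among 11773 were Tcim (r = 0.997), Polr1a, the large subunit of RNA polymerase I (0.997), Napa (0.995), Tmem11 (0.995) and Srxn1, the sulfiredoxin that reduces over-oxidized peroxiredoxins (0.994). Srxn1 rose by 5.06 at 4 hr after KBrO3 and by 4.80 after co-exposure, and stood 0.65 and 1.62 above control at 24 hr, the same order of groups as Ercc8.

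Because Ercc8, Ercc2 and Rad23b rose together at 4 hr and Xpa fell, positions −250 to −35 from the start of each of these genes are shown, from RefSeq promoter windows of GRCm38.p6. The windows are chr13:108158488-108158703 (plus strand) for Ercc8, chr7:19381767-19381982 (plus) for Ercc2, chr4:55349792-55350007 (plus) for Rad23b and chr4:46196346-46196561 (minus) for Xpa. Capitals mark matches, on either strand, to the GC box GGGCGG, the CCAAT box CCAAT and the E-box CACGTG, and no matches of different motifs overlapped.
Ercc8: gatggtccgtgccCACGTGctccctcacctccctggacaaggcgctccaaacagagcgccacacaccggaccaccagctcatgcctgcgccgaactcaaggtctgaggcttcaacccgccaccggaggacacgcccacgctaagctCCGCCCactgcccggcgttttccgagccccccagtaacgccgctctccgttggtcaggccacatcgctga
Ercc2: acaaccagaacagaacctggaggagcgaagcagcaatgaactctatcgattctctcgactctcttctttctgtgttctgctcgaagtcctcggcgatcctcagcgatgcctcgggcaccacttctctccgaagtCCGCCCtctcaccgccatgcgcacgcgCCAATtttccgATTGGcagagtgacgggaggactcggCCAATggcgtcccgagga
Rad23b: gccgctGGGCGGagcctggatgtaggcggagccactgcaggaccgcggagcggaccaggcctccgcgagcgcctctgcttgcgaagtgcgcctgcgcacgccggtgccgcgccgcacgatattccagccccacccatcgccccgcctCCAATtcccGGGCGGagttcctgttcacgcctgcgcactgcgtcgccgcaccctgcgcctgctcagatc
Xpa: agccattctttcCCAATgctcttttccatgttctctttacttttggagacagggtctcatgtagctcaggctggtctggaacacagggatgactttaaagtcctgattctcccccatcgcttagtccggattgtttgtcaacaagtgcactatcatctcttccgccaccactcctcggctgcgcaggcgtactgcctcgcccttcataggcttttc

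The table held the full window of 300 bases for 8 of the 10 genes. The 8 windows held 53.3% to 70.7% GC, against a median of 52.7% over all windows, and the shares below were not tested. The GC box occurred in 5 of these 8 (Ercc1, Ercc2, Ercc6, Ercc8 and Rad23b) and in 35.7% of all 32851 windows. The CCAAT box occurred in 6 of 8 and in 37.4%, and the E-box in 2 of 8 (Ercc6 and Ercc8) and in 7.2%. The antioxidant response element core, TGACNNNGC, was searched because KBrO3 is an oxidant, and it was in none of the 8 and in 12.4% of all windows. The cAMP response element TGACGTCA was in none of the 8 and in 1.8% of all windows, and a palindromic NRF1 site was in the window of Ercc6 and in 1.0%. A match is only a run of letters, and the absence of a match covers these windows alone.

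The other genes of the pathway were read from 5 lists with 42 genes, all of which had a probe that was tested. At 4 hr after KBrO3 alone 16 rose and 22 fell, beside 34.5% of all genes higher and 38.2% lower, and after co-exposure 15 rose and 19 fell, beside 39.7% and 40.7%. At 24 hr 23 rose and 7 fell after KBrO3, beside 31.3% and 38.1%, and 29 rose and 5 fell after co-exposure, beside 34.5% and 38%. The median differences were −0.16 and −0.08 at 4 hr and 0.23 and 0.34 at 24 hr, against 0.02, 0.01, −0.07 and −0.06 for all genes.

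Among 7 other genes of global recognition, Ddb2, the UV-damage sensor that hands lesions to XPC, fell most at 4 hr after KBrO3 (2.89-fold lower, log2 difference −1.53, limma adjusted p = 2.03e-11). Of 6 other transcription-coupled genes, 4 rose and 2 fell in both groups at 4 hr, where 72.7% and 80.4% of all genes changed. Usp7, the deubiquitinase that stabilizes CSB, had the largest rise of all 42 after KBrO3 (2.21-fold, 1.15, adjusted p = 7.83e-10). Uvssa, its partner, was 1.51-fold higher with BPA than with KBrO3 alone at 4 hr (0.60) and 1.45-fold below control at 24 hr after co-exposure (−0.53, adjusted p = 3.13e-06). Elof1, an elongation factor of this branch, was lower with BPA at 4 hr (−0.67, adjusted p = 0.000116).

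Of the 8 other TFIIH subunits 2 rose and 5 fell at 4 hr after KBrO3, and 3 rose and 4 fell after co-exposure, where 72.7% and 80.4% of all genes changed in either direction. Gtf2h1 had the largest rise after co-exposure (2.60-fold, log2 difference 1.38, limma adjusted p = 1.18e-10). Cdk7, the kinase of the complex, fell most between 4 and 24 hr, by 1.18 after KBrO3 and by 0.99 after co-exposure, and Mnat1, which holds that kinase, was lower with BPA at 24 hr (−0.24, adjusted p = 0.00251). Of the RPA subunits, which coat the undamaged strand, 2 rose and 1 fell in both groups at 4 hr.

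Of 18 genes of gap filling and ligation, 5 rose and 11 fell at 4 hr after KBrO3, where 34.5% of all genes were higher and 38.2% lower, and 9 rose and 4 fell at 24 hr (31.3% and 38.1%). After co-exposure 5 rose and 10 fell at 4 hr (39.7% and 40.7%), and 13 rose and 1 fell at 24 hr (34.5% and 38%). These counts were not tested as a group. Compared with KBrO3 alone, 11 of the 18 were higher with BPA at 24 hr and 0 were lower, with Pold4, a small subunit of DNA polymerase delta, the most (1.60-fold, log2 difference 0.68, limma adjusted p = 0.000382), beside a background of 28.5% of all genes higher and 21.9% lower. Polk, the repair polymerase kappa, fell 2.67-fold at 4 hr after co-exposure (−1.41, adjusted p = 1.95e-11) and rose by 1.65 between 4 and 24 hr after KBrO3 and by 2.14 in co-exposed cells. At 24 hr Pole4 rose most after KBrO3 (0.80) and Pole3 fell most (−0.59), both small subunits of DNA polymerase epsilon, and Pold2 rose most after co-exposure (0.96). With BPA alone none of the 42 genes passed limma's adjusted threshold at either time, and 4 at 4 hr and 0 at 24 hr were below an unadjusted p of 0.05.

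**Figure D5:**
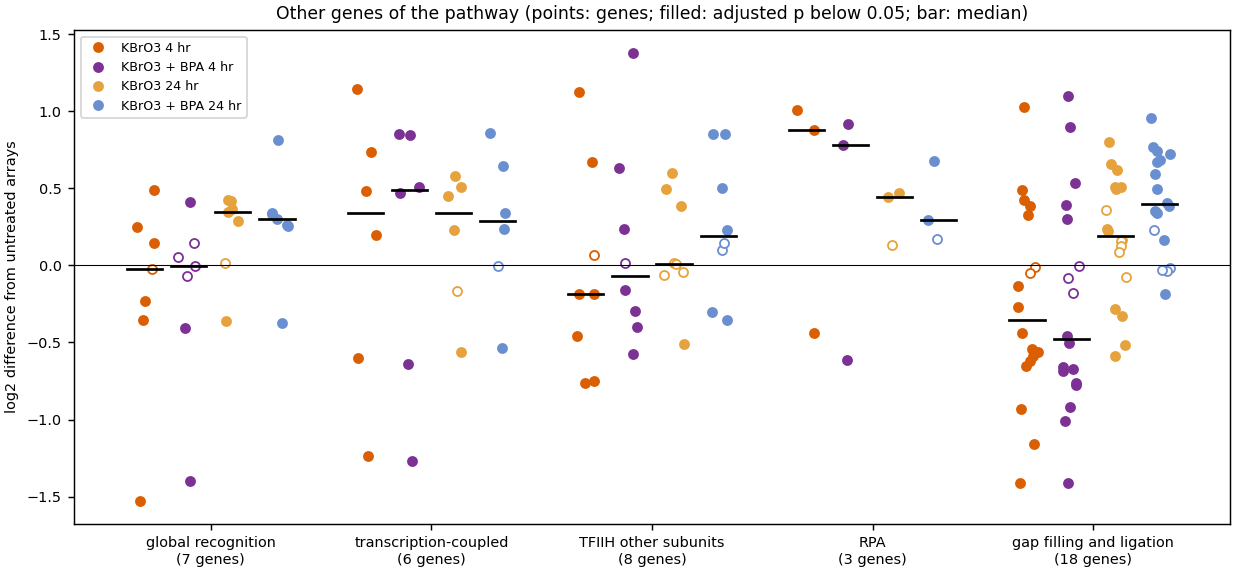
Log2 difference from the untreated arrays of the first set for 42 other genes of nucleotide excision repair in 5 lists, by treatment and time; points are genes (filled where adjusted p was below 0.05) and bars the median of the list. In gap filling and ligation the median lies below 0 at 4 hr (−0.35 and −0.48) and above 0 at 24 hr (0.19 and 0.40).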

How the data were processed

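RNA from Ku70-/- fibroblasts was hybridized to 1-color Agilent arrays, 24 in all. The authors deposited fluorescence intensity values per spot from Agilent's Feature Extraction software (version 9.5.3.1 for the first set, 12.0.0.7 for the second per the file headers, 12.0 per the submitters' processing notes), with no normalization between arrays. The series' value table holds the same signal. The 10 genes and the pathway lists were chosen with earlier results of these data known.

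Processed signals were taken to log2 and each array's 75th percentile was subtracted. Outlier spots were left out, spots of 1 probe were averaged, and probes were named through RefSeq (GRCm38.p6). Probes entered the test if some group had all 3 of its arrays well above background there, which left 27310 probes of the first set (16 of the 18) and 31809 of the second (17 of the 18). Each set was fitted with limma 3.58.1 in R 4.3.3 over all its groups, with Benjamini-Hochberg adjustment over all probes tested, two-sided. The difference of BPA's effects between the sets used Satterthwaite's degrees of freedom. Where a gene had several probes, the one brightest on average over the 24 arrays stands for it. From the pathway lists, the gene with the largest rise and the largest fall was named in each comparison, and likeness to Ercc8 was Pearson's r over 15 arrays. Replicate numbers did not pair samples (mean r of residuals −0.0294 and 0.00201 for the first and second set). Probe positions are those of the first set's array annotation, whose header names mm7. With 3 arrays per group, their number limits the precision. The alternatives were other scalings, normexp correction (offset 50, on mean spot signals in the first set but median spot signals in the second, so that its comparison between the sets mixes both), other filters on dim probes, other sets of arrays in the fit, replicate or slide as a block, an error-weighted analysis of variance, the median over a gene's probes, the thresholds of the study, and leaving out each array. The steps were tested on simulated data.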

Additional observations from a re-analysis of the deposited data

Results flagged for a closer look

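The effect of BPA on top of KBrO3 differed between 4 and 24 hr, by a test of that difference, for Ercc6 (−1.46), Rad23b (1.2, brightest probe), Ercc8 (0.58, brightest probe), Ercc5 (0.42), Ercc3 (−0.29) and Ercc1 (−0.20), each as the log2 effect at 24 hr minus that at 4 hr. Over all genes 57.4% changed in this test, and its 4 hr part compares groups on different slides. The values of Ercc3 and Ercc1 turned to 0.022 and 0.11 with median scaling. Normexp background correction took the calls of Ercc6, Ercc5, Ercc3 and Ercc1. Another probe of Rad23b and of Ercc8 passed in the other direction. The effect of BPA at 4 hr differed between KBrO3-exposed and otherwise untreated cells for Ercc6 (1.38) and Rad23b (−1.46, brightest probe), where 10.1% of all genes did. Normexp background correction took both calls, and no other Rad23b probe passed.

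The difference from control also changed between the 2 times, as did 77.7% of all tested genes after KBrO3 alone and 84.5% after co-exposure. No slide held arrays of both times of the same treatment, so time and slide cannot be told apart for KBrO3 alone. After KBrO3 alone the change from 4 to 24 hr was 1.18 for Ercc1, 0.83 for Xpa, 0.71 for Ercc5, 0.68 for Xpc and 0.57 for Ercc3, and −1.69 for Ercc8, −1.32 for Rad23b, −0.91 for Ercc2 and −0.30 for Ercc6. After co-exposure it was 1.13 for Ercc5, 0.98 for Ercc1, 0.76 for Xpa, 0.69 for Xpc and 0.28 for Ercc3, and −1.76 for Ercc6, −1.11 for Ercc8 and −0.59 for Ercc2. The change of Ercc6 after KBrO3 alone was lost without KBrO3 4 hr replicate 2 or 3 or KBrO3 24 hr replicate 1 or 3 (limma adjusted p = 0.0666, 0.0952, 0.104 and 0.0695), and with median scaling (−0.15, adjusted p = 0.326). The change of Ercc2 after co-exposure was lost with median scaling (−0.13, adjusted p = 0.457), normexp background correction (0.189), the slide as a fixed block (−0.33, adjusted p = 0.193) and all 24 arrays in 1 fit (0.0795), and that of Ercc3 with normexp (0.0645) and 1 fit (0.137). In groups of 3 arrays no test for a single distant array was made.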

How the results depend on the processing

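Of the differences of single genes, 9 reversed. With normexp background correction these were Ercc5 at 24 hr after KBrO3 (−0.16), Ercc6 at 4 hr (−0.49) and 24 hr (−0.88) after KBrO3, and Ercc2 at 24 hr after KBrO3 (−0.39) and co-exposure (−0.23). With median scaling they were the changes of BPA's effect over time of Ercc3 (0.022) and Ercc1 (0.11), and with the median over probes Rad23b at 24 hr after KBrO3 (0.10) and with BPA added at 24 hr (−0.15). Changes of sign in values that passed under neither setting were not counted. Under the study's thresholds the numbers of genes called were 4 (KBrO3 4 hr, background 31.2%), 3 (co-exposure 4 hr, 35.9%), 2 (KBrO3 24 hr, 20%), 3 (co-exposure 24 hr, 23.8%), 0 and 1 (BPA added at 4 and 24 hr, 5.99% and 7.43%) and 4 (KBrO3, 24 against 4 hr). With normexp they were 5 after co-exposure at 4 hr, 3 and 4 for BPA added at 4 and 24 hr, 2 for its change over time and 0 for added against alone at 4 hr. Median scaling left 3 for BPA added at 4 hr, the slide as a random block 3 for KBrO3 at 24 hr, and the arrays compared alone 4 for BPA added at 24 hr. With all 24 arrays in 1 fit, which gives both sets 1 spread, the numbers were 3 for KBrO3 24 hr, 3 for BPA added at 24 hr, 3 for its change over time, 3 and 5 for BPA alone at 4 and 24 hr, 1 for BPA 24 against 4 hr, and 5 and 1 for added against alone at 4 and 24 hr. The background in that fit was 46.7% for KBrO3 24 hr, 20.8% for BPA added at 24 hr and 24% for its change over time. It was 25.7% and 24.9% for BPA alone at 4 and 24 hr and 26% for BPA 24 against 4 hr. The error-weighted analysis of variance gave 4 for the latter at 4 hr. For the other alternatives, leaving out arrays included, the share of all genes called was not counted. There a loss among the members cannot be told apart from a loss over all genes. The cause of these shifts was not tested.

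Leaving out 1 array at a time gave 8 to 9 for KBrO3 and for co-exposure at 4 hr, 5 to 7 and 9 to 10 at 24 hr, 5 to 6 and 6 to 8 for BPA added at 4 and 24 hr, 8 to 9 and 8 to 8 for 24 against 4 hr, 5 to 7 for the change over time, 1 to 2 and 0 to 0 for added against alone, and 0 throughout for BPA alone. With the replicate number as a block the numbers were 9, 8, 7 and 9 against control and 6 and 6 for BPA added at 4 and 24 hr. The block took the call of Rad23b with BPA added at 24 hr (limma adjusted p = 0.0521) and that of Ercc1 for the change over time (0.0544), and no other call. Ercc8, Xpa and Xpc at 4 hr after KBrO3 and Ercc5 with BPA added at 24 hr kept their direction and their call in all 20 alternatives run for each (the median over probes has no test of its own and was judged by the smallest adjusted p of the gene's probes), over 1.77 to 2.04, −1.16 to −0.91, −0.82 to −0.59 and 0.65 to 0.90. The dim probes of Ercc2 and Ercc6 and the spread of the second set limit what these arrays can show.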

Other observations

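Probes left untested in the first set gave these values. The second Ercc4 probe, mm7 chr16:12675547-12675606, was well above background on 4 of the 15 arrays of the first set, all taken at 24 hr. It read −6.39, −6.53 and −6.20 in the controls, −4.65, −4.95 and −5.26 at 24 hr after KBrO3 and −4.88, −4.87 and −4.60 after co-exposure. The second Ercc6 probe, mm7 chr14:29973515-29973574, was well above background on 1 array of the second set and on 0 of the first, and read between −8.18 and −7.32 over the first set's arrays.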
